A study of Mus musculus with 6 samples.

Results

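Plaur, Timp1 and Serpine2 encode a receptor and inhibitors that set where proteases act around a cell. These 3 genes, chosen by name with their levels already known, are described here among the 8078 genes listed in a table of RNA levels in mouse horizontal basal cells. Such cells lie on the basement membrane of the olfactory epithelium and act as its reserve of stem cells. Injured libraries came from mice exposed to methyl bromide gas at 180 ppm for 8 h and taken 18 h later, and uninjured libraries from mice without that exposure, with 3 libraries in each group. All mice were 12 weeks old and carried the alleles named B6;KRT5-CreER;Ai9 fl(Stop)TdTomato. In these mice tamoxifen, given 2 weeks before the sort, lets a Cre recombinase under the keratin 5 promoter switch on the red protein TdTomato, so that both groups carried the same alleles and the same tamoxifen treatment. Cells were sorted on TdTomato alone, so any cell in which that promoter had been active could enter, and each library pooled cells of several animals. Values are FPKM (fragments per length of transcript and sequencing depth), which allow levels of different genes to be set side by side. A change is the mean of injured minus that of uninjured libraries in log2(FPKM + 1), a scale on which genes with low values appear to change less than they did.

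Plaur encodes the urokinase receptor, a protein tethered to the outer membrane by a lipid anchor. It holds urokinase, the product of Plau, at the cell surface, where urokinase turns plasminogen into plasmin, a protease that dissolves fibrin and activates other proteases. Serpine2 encodes protease nexin-1, a secreted serpin that traps thrombin, urokinase and tissue plasminogen activator. Timp1 encodes a secreted inhibitor of matrix metalloproteinases, enzymes that cut collagen and basement membrane. In healing skin, keratinocytes at the wound edge are known for urokinase, its receptor and matrix metalloproteinases.

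The sorted libraries carried Trp63, the transcription factor that holds horizontal basal cells at rest, at 112, 99.5 and 140 FPKM in injured replicates 1 to 3 and at 187, 194 and 157 FPKM in uninjured replicates 1 to 3. Krt5 was not analysed here, and Krt14 shares a single entry with 6 other keratin genes. Stoml3 of mature olfactory neurons was present too, at 94.0 to 168 FPKM in injured and 316 to 561 FPKM in uninjured libraries. Summed FPKM per library lay between 164265 and 231755, and read depth is unknown. A single entry, Mir703, made up 8.01%, 11.6% and 18.6% of that sum in injured replicates 1 to 3. In uninjured replicates 1 to 3 it made up 25.4%, 22.0% and 25.3%. Injured replicate 2 stood apart: its log2 values correlated across genes at 0.734 and 0.754 with the other injured libraries, against 0.849 between those, and at 0.804, 0.830 and 0.811 with uninjured replicates 1 to 3. With the uninjured libraries injured replicate 1 correlated at 0.788 to 0.805 and injured replicate 3 at 0.803 to 0.825, so there the injured libraries were similar. Injured replicate 2 also carried far more RNA of neuronal precursor genes, with a summed marker level of 442 FPKM, against 50.8 and 46.6 FPKM in injured replicates 1 and 3 and 49.5 to 68.8 FPKM in uninjured libraries. Results are therefore given with and without that library.

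At 18 h after the lesion Timp1 and Plaur stood high in the same 2 libraries, injured replicates 1 and 3, and Serpine2 kept one range of levels in both groups. Timp1 was far above every uninjured library in those libraries and a few times above them in injured replicate 2. Plaur in injured replicate 2 was at the level of uninjured cells. The genes were chosen with these levels known, so they are given as a description with no test.

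Plaur and Timp1 stood high together in some injured libraries, but only Timp1 was above all uninjured libraries in each of them. The groups overlap for Serpine2. The stretches upstream of the start of each gene are shown as a description, and their part in these levels was not tested. They come from RefSeq's promoter table on build GRCm38.p6, which is not the build mm9 named in the submitters' processing notes, and all 3 genes matched by symbol. The Plaur stretch is chr7:24462233-24462482 on the plus strand and the Timp1 stretch is chrX:20869916-20870165 on the plus strand. The Serpine2 stretch is chr1:79858697-79858915 on the minus strand, and it stops 31 bases before the RefSeq start, where GENCODE places an exon. Capitals mark matches to the motifs named below, on either strand.
Plaur: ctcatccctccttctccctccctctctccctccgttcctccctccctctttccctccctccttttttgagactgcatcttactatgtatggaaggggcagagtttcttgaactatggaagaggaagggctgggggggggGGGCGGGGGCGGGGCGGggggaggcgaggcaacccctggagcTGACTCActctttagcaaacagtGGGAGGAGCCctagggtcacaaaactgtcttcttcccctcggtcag
Timp1: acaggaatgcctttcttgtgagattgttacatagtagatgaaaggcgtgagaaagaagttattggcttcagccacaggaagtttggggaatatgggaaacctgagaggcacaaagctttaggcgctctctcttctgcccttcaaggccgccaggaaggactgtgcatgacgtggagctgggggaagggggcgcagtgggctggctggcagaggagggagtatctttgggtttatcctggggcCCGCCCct
Serpine2: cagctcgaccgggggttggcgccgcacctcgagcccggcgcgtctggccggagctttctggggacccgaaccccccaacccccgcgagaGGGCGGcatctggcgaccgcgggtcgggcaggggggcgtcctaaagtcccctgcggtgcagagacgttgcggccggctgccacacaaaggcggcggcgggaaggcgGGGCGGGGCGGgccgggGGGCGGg

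In the Plaur stretch TGACTCA, a match to the AP-1 motif TGANTCA, lies 69 to 63 bases before the start, and 6.75% of 32851 promoters of the table hold that motif in the 250 bases upstream. The same stretch holds 3 matches to the GC box GGGCGG, of which 2 share a base, and 1 match to an NF-kB motif, GGGAGGAGCC, where its 4 inner bases may be any. A GC box stands in 32.7% and the NF-kB motif in 17.6% of all promoters. Upstream of Timp1 the only match was a GC box on the other strand, 8 to 3 bases before the start. The letters TGAGTAA, which were searched for only after the sequence had been read, begin at base 27 of the Timp1 transcript, in tgggtggaTGAGTAAtgcgtcca, and 2.68% of promoters hold them within 300 bases. Serpine2 had 6 GC boxes in the 250 bases upstream, of which 2 share a base and 4 lie in the stretch shown. Its 250 bases had 78.8% G and C, more than 98.3% of promoters, against 59.6% for Plaur and 54.4% for Timp1. None of the 3 upstream windows matched TGACGTCA (the CRE), TATAAA (the TATA box), CACGTG (an E box) or TTCNNNGAA (STAT). A match is a string of letters here, and binding was not measured.

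In injured replicates 1, 2 and 3 Plaur was at 33.0, 4.13 and 52.2 FPKM, against 2.29, 4.14 and 3.08 FPKM in uninjured replicates 1, 2 and 3. Injured replicates 1 and 3 were above all uninjured libraries, and injured replicate 2 lay just under the highest of them, so that the groups overlap. The level in injured cells was 10.4, 1.30 and 16.5 times the uninjured mean of 3.17 ± 0.925 FPKM (SD, n = 3). In rank within a library, Plaur exceeded 87.1%, 21.6% and 92.7% of the listed genes in injured replicates 1 to 3, and 12.7%, 25.7% and 17.3% in uninjured replicates 1 to 3. A receptor gene among the low genes of uninjured cells thus stood among the high ones in 2 of 3 injured libraries. The mean log2 change was 2.36, with a standard error of 1.05, and it was 3.37 without injured replicate 2.

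In injured replicates 1, 2 and 3 Timp1 was at 138, 9.72 and 224 FPKM, against 1.50, 2.76 and 2.15 FPKM in uninjured replicates 1, 2 and 3. The groups did not overlap, and the lowest injured library was still 4.56 times the uninjured mean of 2.13 ± 0.629 FPKM (SD, n = 3). In injured replicates 1 and 3 the level was 64.5 and 105 times that mean. Timp1 went past 97.8%, 56.1% and 98.9% of listed genes in injured replicates 1 to 3, but only past 8.05%, 15.7% and 10.9% in uninjured replicates 1 to 3. Its log2 change was 4.49 with a standard error of 1.37, the second highest among 7987 genes, and it was 5.84 and again the second highest among 7887 genes without injured replicate 2. On the log2 scale injured replicate 2 had covered 30.8% of the distance between the uninjured mean and the mean of the other injured libraries for Timp1, and 9.52% for Plaur. The ratio of Timp1 to Plaur was 4.17, 2.36 and 4.29 in injured replicates 1 to 3 and 0.653 to 0.696 in uninjured libraries.

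In injured replicates 1, 2 and 3 Serpine2 was at 32.1, 46.9 and 43.2 FPKM, against 38.0, 47.6 and 63.8 FPKM in uninjured replicates 1, 2 and 3. From low to high the libraries interleave, and the lowest is injured replicate 1 and the highest uninjured replicate 3. The means were 40.7 ± 7.69 FPKM in injured and 49.8 ± 13.0 FPKM in uninjured cells (SD, n = 3 each). The log2 change of -0.27 with a standard error of 0.267 was within the spread between libraries, and it was -0.38 without injured replicate 2. With 86.7% to 93.8% of genes below it in injured and 92.3% to 95.3% in uninjured libraries, Serpine2 belonged to the abundant genes of both groups.

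**Figure D1:**
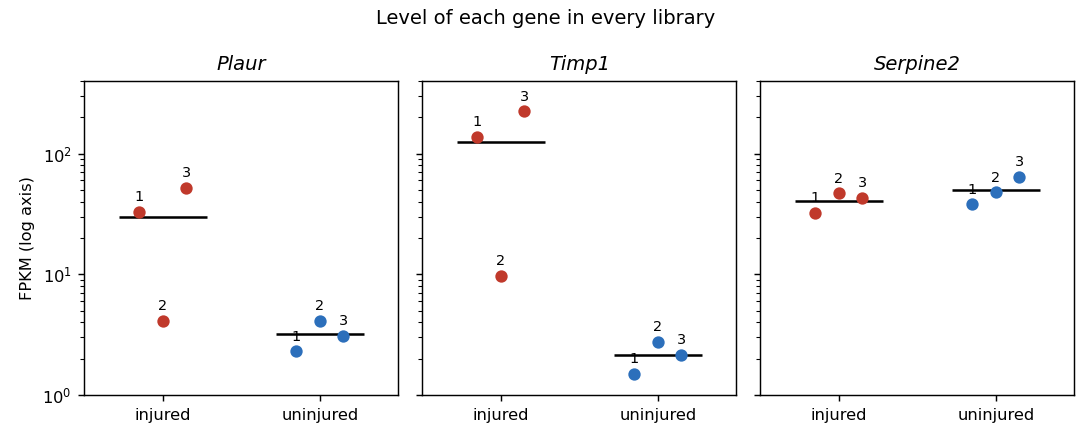
Level of Plaur, Timp1 and Serpine2 in FPKM on a log axis, with 1 point per library, its replicate number above the point and the group mean as a line. Injured replicates 1 and 3 stand high for Plaur and Timp1, injured replicate 2 stands at 4.13 and 9.72 FPKM, and the groups overlap for Serpine2.

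Timp1 lies on the X chromosome, inside the neuronal gene Syn1, which runs on the opposite strand in GENCODE. Nextera XT libraries do not mark strand, so strand does not tell reads of the pair apart. Syn1 was not analysed here, and its part in the Timp1 values was not tested. Xist, which coats and silences one X chromosome in female cells, had 0.0645, 0.346 and 0.561 FPKM in injured replicates 1 to 3, against 27.4, 33.8 and 27.0 FPKM in uninjured replicates 1 to 3. The Y-linked gene Eif2s3y was at 21.1 to 29.3 FPKM in injured libraries and at 18.8, 2.73 and 2.55 FPKM in uninjured replicates 1 to 3. The labels do not give the sex of the animals. Going by Xist, RNA of female cells was nearly absent from injured libraries and present in every uninjured one, while Eif2s3y was found in all libraries. The mix of sexes in the pools thus differed along with injury, so injury and sex cannot be told apart for X-linked Timp1. The same limit holds for Plaur, Serpine2 and every other gene compared here. Of 5 listed genes near Timp1 on the X, none passed the test described below, and their log2 changes ran between -0.61 for Usp11 and 0.78 for Uba1.

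Among the TIMP genes the leading transcript differed between libraries. Timp3, an inhibitor bound to the extracellular matrix, was at 44.1, 47.6 and 99.1 FPKM in injured replicates 1 to 3, against 101, 96.9 and 108 FPKM in uninjured replicates 1 to 3. Timp2, which also takes part in activating a matrix metalloproteinase, was at 29.8, 18.1 and 22.7 FPKM in injured replicates 1 to 3, against 17.3, 42.6 and 37.4 FPKM in uninjured replicates 1 to 3. Timp1 made up 65.1%, 12.9% and 64.8% of the summed FPKM of the TIMP genes in injured replicates 1 to 3, and 1.26% to 1.94% in uninjured libraries, where Timp3 held 68.1% to 84.2%. Summed over these genes the level was 211, 75.5 and 346 FPKM in injured and 119, 142 and 147 FPKM in uninjured replicates 1 to 3. Timp3 overlaps Syn3, which was at 7.61 FPKM in injured replicate 1 and listed at 0.001 in the other libraries. Neither Timp3 (log2 change -0.77, limma adjusted p = 0.458) nor Timp2 (-0.38, limma adjusted p = 0.702) passed.

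Urokinase itself followed its receptor. Plau was at 16.2, 0.687 and 18.8 FPKM in injured replicates 1 to 3, against 0.189, 0.848 and 0.616 FPKM in uninjured replicates 1 to 3. As with Plaur, injured replicates 1 and 3 were above all uninjured libraries and injured replicate 2 was within their range. Plat, the tissue plasminogen activator, was at 13.0, 10.6 and 13.6 FPKM in injured replicates 1 to 3, against 22.4, 8.85 and 12.9 FPKM in uninjured replicates 1 to 3. Urokinase thus made up 55.6%, 6.08% and 58.0% of the summed activator FPKM in injured replicates 1 to 3, and 0.834% to 8.75% in uninjured libraries. The ratio of Plau to Plaur was 0.491, 0.167 and 0.360 in injured and 0.0823, 0.205 and 0.200 in uninjured replicates 1 to 3, so receptor RNA exceeded ligand RNA in every library.

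Lower serpins stood beside Serpine2. Serpinb2, an intracellular inhibitor of urokinase, was at 2.29, 0.981 and 3.83 FPKM in injured libraries and at 0.0573 FPKM or the lowest value of the table, 0.001, in uninjured ones. Serpine3, a relative of Serpine2 by name, was at 2.99, 4.93 and 3.70 FPKM in injured libraries and listed at 0.001 in all uninjured ones. Serpine3 overlaps Ints6 on the opposite strand, which was at 14.2 ± 6.86 FPKM in injured and 10.8 ± 4.87 FPKM in uninjured libraries (SD, n = 3 each).

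**Figure D2:**
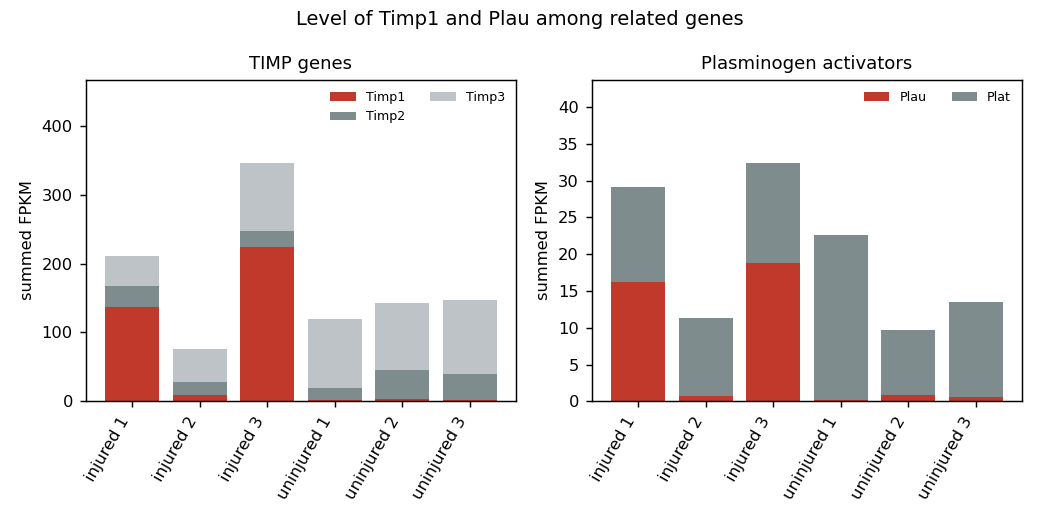
Summed FPKM of the TIMP genes and of the plasminogen activators, as stacked bars with 1 bar per library. Timp1 makes up 65.1% and 64.8% and Plau 55.6% and 58.0% of the bars of injured replicates 1 and 3, and both are small parts of the other bars.

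The wider protease network was read from 9 lists of activators, receptors, inhibitors, proteases and surface partners, without Plaur, Timp1 and Serpine2. Of 225 symbols 86 had an entry and 82 were tested with limma on log2(FPKM + 1), among the 7987 genes whose mean reached 1 FPKM and with Benjamini-Hochberg adjustment at 0.05. None of the 82 was called over the 6 libraries, where 0.0% of all genes tested were called higher and 0.0125% lower. Under an unadjusted limma p of 0.05, 13 network genes were higher and 1 lower, where 7.15% and 4.04% of all genes were. Several of the higher genes entered the test only through their injured values, among them Serpinb2, Kng1 and Plau, with uninjured means of 0.0198, 0.107 and 0.551 FPKM. When limma was run with neither trend nor robust variances it called 1 network gene, Serpine3, which is listed at 0.001 in all uninjured libraries and entered the test only through its injured values. The median log2 change was 0.25 over the 82 genes and 0.16 over all genes tested. Injured libraries were all above uninjured ones for 8 network genes, against 12.0% of all genes, and all below for 3, against 6.75%. Among the 8, Serpine3, Serpinb2, Kng1, Lypd3 and Lrp8 had uninjured means under 1 FPKM. The 3 lower genes, named after their values were seen, were Mrc2, a collagen receptor, Cd74 and the joined entry of Adam28 and Adamdec1.

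Without injured replicate 2, limma called 13 of 80 network genes higher and 0 lower, where 3.52% of all 7887 genes were higher and 1.17% lower. The median log2 change was then 0.49 in the network and 0.18 over all genes tested. Injured replicates 1 and 3 were both above every uninjured library for 41 of the 82 genes, against 29.4% of all genes tested. Injured replicate 2 joined them in 8 of those 41, and in 958 of 2351 such genes over the whole table. The 13 calls rest on 2 injured libraries. Of the genes called, Plau, Slpi and Lypd3 had uninjured means of 0.551, 0.457 and 0.803 FPKM. They reached the mean of 1 FPKM, and so the test, only through their injured values.

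On the activator and receptor side 5 of 21 genes were called higher without injured replicate 2, where 3.52% of all genes tested were, and none with all libraries. The list median was 0.37 with all libraries and 0.92 without injured replicate 2. Plau had a log2 change of 3.60 without injured replicate 2 (limma adjusted p = 0.00465) and 2.45 with all libraries (limma adjusted p = 0.381). S100a10, which with annexin A2 binds plasminogen at the cell surface, was at 253, 58.9 and 272 FPKM in injured and 53.2 to 66.1 FPKM in uninjured libraries (limma adjusted p = 0.00930 without injured replicate 2). Its partner Anxa2 was at 176, 68.3 and 163 FPKM in injured and 65.2 to 92.2 FPKM in uninjured libraries and did not pass. F2rl1, a receptor switched on by cleavage by trypsin-like proteases, was at 69.9, 20.4 and 91.2 FPKM in injured and 16.2 to 19.3 FPKM in uninjured libraries (limma adjusted p = 0.00755 without injured replicate 2). Procr, the protein C receptor, and Itga3, an integrin subunit that binds laminin, had log2 changes of 1.54 and 1.60 without injured replicate 2. Of these 5 genes F2rl1 and Procr were above all uninjured libraries in injured replicate 2 too, by a small margin. Lrp1, which takes up complexes of urokinase, its receptor and a serpin, was at 4.46 to 5.68 FPKM in injured and 4.69 to 8.92 FPKM in uninjured libraries.

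Genes around thrombin, which protease nexin-1 also traps, were read from the same list. F3, the tissue factor that starts clotting, was at 202, 91.7 and 242 FPKM in injured and 166 to 205 FPKM in uninjured libraries. The thrombin receptor F2r was at 65.8, 37.0 and 78.2 FPKM in injured and 54.9 to 59.6 FPKM in uninjured libraries. Thbd, the thrombin-binding protein thrombomodulin, was low, at 1.70, 0.166 and 6.94 FPKM in injured and 0.462, 0.550 and 1.33 FPKM in uninjured replicates 1 to 3. For all of these genes injured replicate 2 was the lowest of the 6 libraries, the groups overlap, and none passed.

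Of inhibitors outside the members' own pathways, Serpinb5, Slpi, Cast and the joined entry of Serpinb1a and Serpinb1c were called higher, and only without injured replicate 2. Slpi, a secreted inhibitor of neutrophil elastase, was at 5.53, 0.606 and 9.28 FPKM in injured and 0.125 to 0.858 FPKM in uninjured libraries. Serpinb5, the epithelial serpin maspin, was at 21.3, 6.50 and 15.6 FPKM in injured and 5.32 to 7.63 FPKM in uninjured libraries. Cast, which inhibits calpains inside the cell and overlaps Erap1 on the opposite strand, had a log2 change of 1.23 without injured replicate 2 (limma adjusted p = 0.0360). The joined Serpinb1a and Serpinb1c entry was above the uninjured libraries in all 3 injured ones, at 16.8, 7.59 and 25.1 FPKM against 5.07 to 5.74 FPKM. On the list of inhibitors of plasminogen activation and thrombin, 0 of 7 genes passed with all libraries or without injured replicate 2. Its most abundant entries were Serpinb6a joined with Serpinb6c, at 67.3 ± 30.2 FPKM in injured and 46.4 ± 3.03 FPKM in uninjured libraries, and Serping1, the C1 inhibitor, at 18.7 ± 11.3 and 9.19 ± 1.25 FPKM in the same order (SD, n = 3 each).

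Of 42 symbols on the list of metalloproteinases and their relatives, 11 had an entry that was tested with all libraries and 10 without injured replicate 2. Adamtsl4, a matrix protein of the ADAMTS-like family without protease activity, was the only one called higher, and only without injured replicate 2 (log2 change 1.48, limma adjusted p = 0.0420). In that fit 3.52% of all genes tested were higher. Mmp14, a membrane-bound collagenase, was at 12.3, 7.82 and 17.1 FPKM in injured and 8.13, 9.60 and 11.6 FPKM in uninjured replicates 1 to 3. Mmp13, a secreted collagenase, was at 5.87, 1.42 and 3.09 FPKM in injured and 0.342, 3.86 and 0.986 FPKM in uninjured replicates 1 to 3. The groups overlap for both. None of the 10 cell surface serine proteases and Kunitz inhibitors tested with all libraries passed, nor did any of the 9 tested without injured replicate 2, with Spint1, an inhibitor of matriptase, at 26.5 ± 11.7 FPKM in injured and 17.9 ± 5.86 FPKM in uninjured libraries, and the serine protease Prss23 at 9.97 ± 2.66 and 12.8 ± 2.13 FPKM in the same order (SD, n = 3 each).

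Among relatives and partners of the urokinase receptor, Lypd3, a Ly6 family protein with the same type of domain, was at 4.94, 2.42 and 7.30 FPKM in injured and 0.706, 0.487 and 1.22 FPKM in uninjured replicates 1 to 3. It was above all uninjured libraries in each injured one and was called higher without injured replicate 2 (limma adjusted p = 0.0409). It was the only one of 6 tested family entries to do so. Of 13 surface partners, Cav1, the coat protein of caveolae, and the laminin-binding integrin subunits Itga3 and Itga6 were called higher without injured replicate 2. Itga3 is also on the activator and receptor list, and both subunits are on the horizontal basal cell marker list read below. Each entry of that marker list was lowest in injured replicate 2, the library left out of that fit. Of all genes tested 3.52% were higher in that fit, and no family entry or partner was called higher with all libraries. Cav1 was at 24.0, 4.56 and 21.5 FPKM in injured and 3.48 to 5.41 FPKM in uninjured libraries. Itgb1, the common beta subunit, was at 66.8, 33.0 and 100.2 FPKM in injured and 50.4 to 70.2 FPKM in uninjured libraries. Cd63, a tetraspanin that binds Timp1, was at 19.5, 12.2 and 20.3 FPKM in injured and 7.18, 23.1 and 23.9 FPKM in uninjured replicates 1 to 3, without a call.

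**Figure D3:**
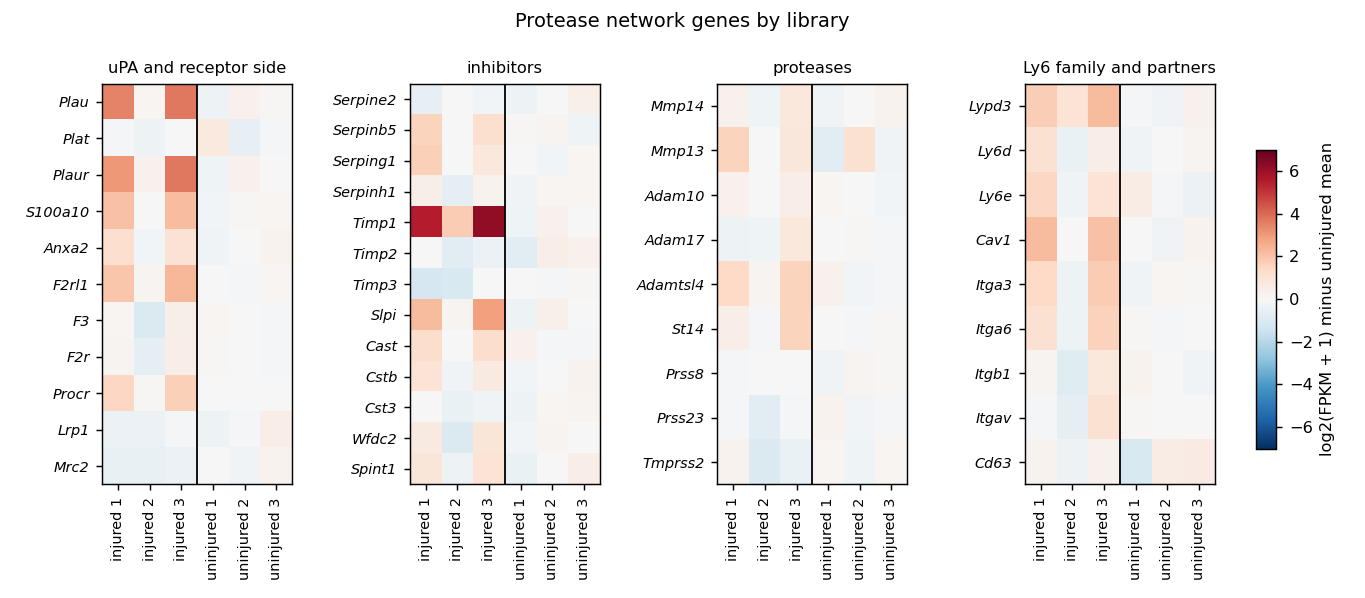
Colour shows log2(FPKM + 1) minus the mean of the uninjured libraries for genes of the protease network, by role (panels), gene (rows) and library (columns). Columns of injured replicates 1 and 3 are redder than that of injured replicate 2 for Plau, Plaur, Timp1, S100a10, Slpi and Cav1, and Serpine2, Plat and Lrp1 are pale throughout.

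Genes with a pattern most like that of each member were found by the Euclidean distance between log2(FPKM + 1) profiles over the 6 libraries, each centred on its own mean, among 7986 other genes. The gene closest to Plaur was Plau, at a distance of 0.479, where the median gene was at 3.79. Next came Ahsa2 (0.545), Hsph1 (0.602), a heat shock protein, Csf3 (0.703), the granulocyte colony-stimulating factor, and Cldn1 (0.708), a tight junction protein. Hsph1 was at 163, 32.6 and 219 FPKM in injured and 21.1 to 27.7 FPKM in uninjured libraries. Plau, Ahsa2, Csf3 and Cldn1 were under 1 FPKM in every uninjured library and reached the mean of 1 FPKM only through injured values. Ahsa2 was listed at 0.001 in injured replicate 2 and in each uninjured library. The genes closest to Timp1 were Ppbp (1.12), a chemokine, Il1rn (1.33), the interleukin-1 receptor antagonist, Tubb6 (1.69), a tubulin, Fosl1 (2.10), a subunit of AP-1, and Rai12 (2.16), where the median gene was at 6.32. Ppbp was at 99.1, 3.96 and 106 FPKM in injured libraries and listed at 0.001 in each uninjured one, and Il1rn was at 43.1, 2.25 and 36.8 FPKM in injured and 0.221 to 0.661 FPKM in uninjured libraries. Fosl1 was at 0.001 to 1.10 FPKM in uninjured libraries, and Rai12 was listed at 0.001 there and in injured replicate 2. These genes too entered the search only through injured values. On the log2(FPKM + 1) scale such low values lie near 0, so likeness to these genes rests largely on the size of the rise. Plaur and Timp1 lay 2.73 apart, which reflects the larger change of Timp1, and Serpine2 lay 4.27 from Plaur and 6.85 from Timp1.

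The genes closest to Serpine2, whose level varied little, were Celf4 (0.245), Rap1gds1 (0.248), Ppt1 (0.256), Arl6ip1 (0.270) and Pop5 (0.289), where the median gene was at 1.29. Arl6ip1 was at 35.7, 53.3 and 47.0 FPKM in injured and 49.9, 57.6 and 65.7 FPKM in uninjured replicates 1 to 3. Like Serpine2 these genes were lowest in injured replicate 1 and highest in uninjured replicate 3. The measure uses the group difference itself, so the likeness is a description of 6 libraries.

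**Figure D4:**
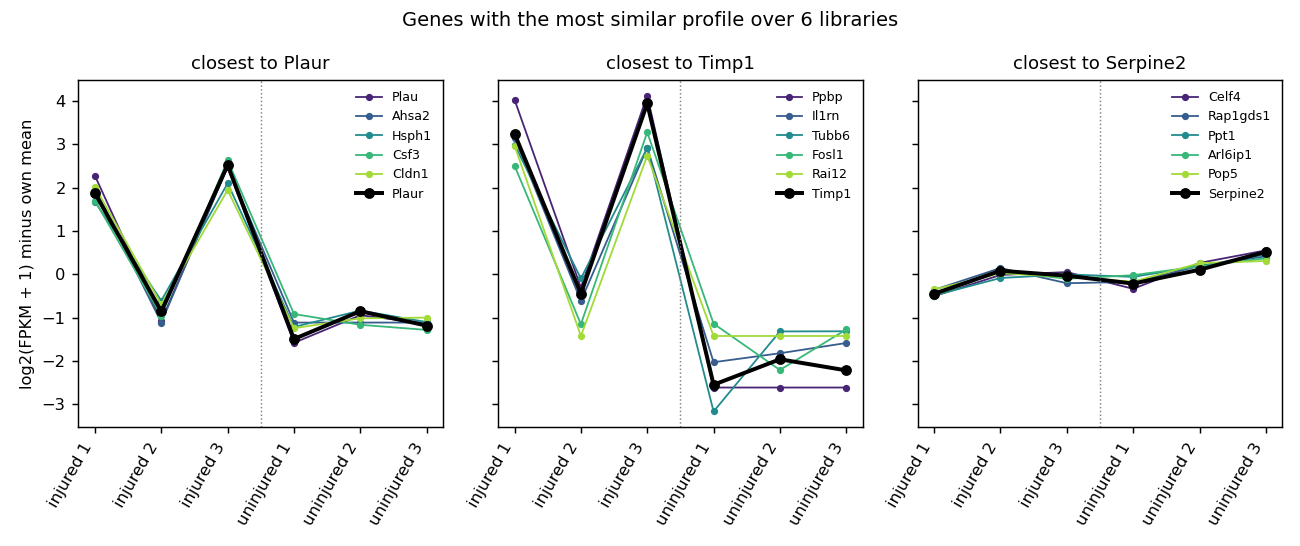
Log2(FPKM + 1) minus the gene's own mean in each library for Plaur, Timp1 and Serpine2 (black) and the 5 genes closest to each (colours); lines join the values of 1 gene and libraries have no order within a group. Around Plaur and Timp1 all curves are high in injured replicates 1 and 3, and around Serpine2 they stay within about 1 unit.

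Plaur and Timp1 are also expressed by leukocytes and fibroblasts in other tissues, so marker lists were read beside them. In bulk libraries fewer cells of a type and less RNA per cell cannot be told apart. The leukocyte list, with 12 of 25 symbols listed, summed to 1044, 196 and 340 FPKM in injured and 394, 357 and 571 FPKM in uninjured replicates 1 to 3, with the joined entry of Lyz1 and Lyz2 the largest part. Ptprc, the pan-leukocyte marker, was at 17.9, 0.343 and 1.16 FPKM in injured and 1.06, 0.800 and 3.52 FPKM in uninjured replicates 1 to 3. Both the sum and Ptprc were highest in injured replicate 1, where Timp1 was at 138 and Plaur at 33.0 FPKM, while injured replicate 3, where Timp1 was at 224 and Plaur at 52.2 FPKM, had a sum below and Ptprc within the uninjured values. Of the 12 entries, 4 were lower in all injured libraries than in any uninjured one, where 6.75% of all genes tested were. These were Cd74, H2-Aa and H2-Ab1 of antigen presentation and Laptm5, with H2-Aa at 13.0 ± 4.43 FPKM in injured and 34.1 ± 9.12 FPKM in uninjured libraries (SD, n = 3 each). S100a8, S100a9 and Cd14 were instead above all uninjured libraries in injured replicates 1 and 3 and not in injured replicate 2. Over all genes tested 29.4% were above in injured replicates 1 and 3. S100a8 was at 41.4, 11.3 and 22.9 FPKM in injured and 6.34 to 19.1 FPKM in uninjured libraries. Csf1r, Itgam, Cd68 and Csf3r were not analysed here.

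The fibroblast list, with 5 of 15 symbols listed, summed to 116, 84.7 and 43.9 FPKM in injured and 131, 227 and 167 FPKM in uninjured replicates 1 to 3, and so was lower in every injured library. That difference lay in Dcn, a fibroblast proteoglycan, which was at 27.5, 62.5 and 15.3 FPKM in injured and 116, 162 and 145 FPKM in uninjured replicates 1 to 3. The other 4 entries, Col1a1, Col1a2, Fbln1 and Thy1, had positive log2 changes, and the median over the 5 was 0.33, where that of all genes tested was 0.16. None of 14 endothelial symbols was listed. The horizontal basal cell list, with 9 of 12 symbols listed, summed to 1239, 548 and 1276 FPKM in injured and 872, 852 and 804 FPKM in uninjured replicates 1 to 3. It was thus lowest in injured replicate 2, the library with low Plaur and Timp1 among the injured ones and with the high neuronal precursor sum of 442 FPKM. Most of the basal cell sum was the joined entry of Krt14 and other keratins, at 917, 355 and 853 FPKM in injured replicates 1 to 3. Each entry of the list was lowest in injured replicate 2, but Trp63 by little, at 99.5 FPKM against 112 FPKM in injured replicate 1. Unlike the sum, Trp63 was lower in every injured library than in any uninjured one. In injured replicate 2 the precursor genes Gap43 and Stmn2 were at 113 and 135 FPKM, against 2.44 and 11.1 FPKM in injured replicate 1 and 2.76 and 6.04 FPKM in injured replicate 3. The sustentacular list summed to 638, 305 and 286 FPKM in injured and 692, 1412 and 1363 FPKM in uninjured replicates 1 to 3, and the mature neuron list to 167, 427 and 147 FPKM in injured and 497, 617 and 799 FPKM in uninjured replicates 1 to 3. The part of these cells in the levels of Plaur, Timp1 and Serpine2 was not tested.

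**Figure D5:**
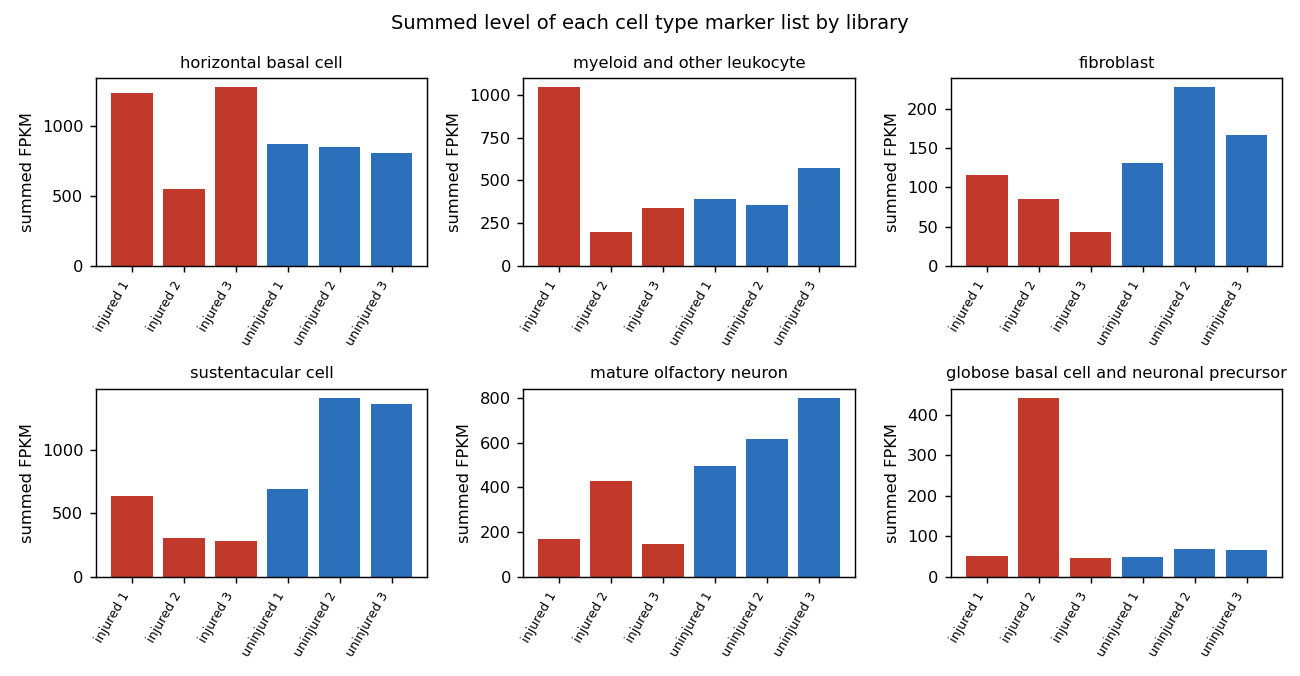
Summed FPKM of 6 cell type marker lists, with 1 bar per library, injured in red and uninjured in blue. The neuronal precursor sum stands at 442 FPKM in injured replicate 2 and the basal cell sum is lowest there, while the leukocyte sum is highest in injured replicate 1.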

How the data were processed

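RNA of TdTomato-sorted cells was measured in 6 libraries, 3 injured and 3 uninjured, grouped by their titles. Libraries were prepared with Nextera XT from polyA RNA, per the labels' protocols. Per the submitters' processing notes, FastQC, TopHat, Cuffdiff and mm9 were used; their versions, annotation, filters and scaling: not given in the sources used here. FPKM is taken as the unit of the deposited values, since Cuffdiff is named and the gene column carries its heading. The table does not name its unit. A further 131 entries join several symbols and give no level for 1 gene. Of all genes, 549 are at the floor of 0.001 somewhere. No steps of whole reads were found (at most 6.38% of ratios of low genes agreed within 1%), so depth is unknown and no counting intervals were computed. No 2 libraries held identical values. Nothing says that same-numbered libraries were paired.

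The 7987 genes whose mean reached 1 FPKM were fitted in limma 3.58.1 under R 4.3.3, as log2(FPKM + 1), with no covariate and with moderated variances (trend and robust options). The test was tried on simulated data. P-values measure the spread between pooled libraries. The members and the gene lists were chosen with earlier results of these data known, and Plaur, Timp1 and Serpine2 were not tested. Genes named are the members, per protease list up to 6 that pass with all libraries or without injured replicate 2 (else the 2 most abundant), the 5 genes most like each member, and Syn1 and Xist. Others (such as Plat, Serpine3, Anxa2, F3, F2r, Thbd, Lrp1, Mmp13, Mmp14, Itgb1, Cd63 and the cell type markers) were named for their role after values were seen. Protein comparisons named in the plan were not made. Promoters came from RefSeq (GRCm38.p6), and overlapping genes from GENCODE vM21. Python 3.11.15 and matplotlib 3.10.9 made the figures. Alternatives were other pseudocounts, scalings, filters and variance options, a replicate block and each library left out.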

Additional observations from a re-analysis of the deposited data

How the results depend on the processing

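The direction of the change of Plaur, Timp1 and Serpine2 was the same under the pseudocounts, the scalings and the left-out libraries tried. No log2 change moved by more than the larger SD of a group, 1.79 for Plaur, 2.36 for Timp1 and 0.367 for Serpine2. That SD includes every library of its group. Leaving out 1 of 3 libraries cannot move a group mean by so much, so for left-out libraries this bound does not measure stability. Leaving out each library in turn gave log2 changes of 1.69 to 3.37 for Plaur, 3.64 to 5.84 for Timp1 and -0.45 to -0.08 for Serpine2. Upper-quartile scaling set the median gene's log2 change to -0.01, against 0.16 as deposited, and gave 2.19 for Plaur, 4.33 for Timp1 and -0.45 for Serpine2. Quantile normalization set it to 0.01 and gave 2.17, 4.31 and -0.44. Rescaling without Mir703 set it to 0.02 and gave 2.21, 4.36 and -0.43, so values as deposited run somewhat higher in the injured group.

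With limma, 1 gene (Xist) was called over all libraries and 0 of the protease network. The gene count was 2 with a pseudocount of 0.1, 3 with upper-quartile scaling, 4 with quantile normalization and 6 without the trend and robust steps, which called 1 network gene. Leaving out each library gave 1 to 370 genes and 0 to 13 network genes; the highest counts are those without injured replicate 2, and the cause was not tested. With the replicate number as a block, 221 genes and 4 network genes (Plau, F2rl1, Cav1 and the joined Serpinb1a entry) were called. Deviations of same-numbered libraries from their group means correlated at -0.0892, 0.0677 and -0.0776 for numbers 1 to 3. Only the libraries numbered 2 correlated best with their own number. With 3 libraries per group such values cannot decide whether the numbers pair the libraries, and no source says that they do. Without depth, precision cannot be told apart from biological spread.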
